A study of Mus musculus with 12 samples.

Results

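The genes described here are 4 long-chain acyl-CoA synthetases (Acsl1, Acsl3, Acsl4 and Acsl5) and 4 acyltransferases (Lpcat3, Mboat1, Mboat2 and Agpat3). They were chosen by name, and all 8 were found among the 55487 gene identifiers of the count table. A long-chain acyl-CoA synthetase joins a fatty acid to coenzyme A, which a cell must do before it can burn the fatty acid, store it or build it into a membrane. Acyltransferases such as Lpcat3 then place the activated chain on a lysophospholipid, so that the pair of enzyme families decides which chains a membrane phospholipid carries. Acsl4 prefers long polyunsaturated chains such as arachidonic acid, and phospholipids with such chains are the ones most readily oxidized in ferroptosis, an iron-dependent form of cell death studied in injured kidney tubules. Acsl3 and Mboat2 are known for work on monounsaturated chains, which are far less easily oxidized.

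RNA of mouse kidney, labelled kidney cortex, was sequenced in 12 libraries, 3 in each of 4 groups. The targeted gene is Gfer, which encodes ALR (augmenter of liver regeneration), a mitochondrial sulfhydryl oxidase. Ctrl mice carried the floxed allele (ALR flox/flox, genotype WT in the labels) without Cre and were sham-operated. PT-KO mice carried ALR flox/flox with Ggt1-Cre, whose promoter is active in the proximal tubule, so that ALR was to be lost in that segment alone; the labels call this genotype a knockdown. Ctrl+I/R and PT-KO+I/R mice of the same genotypes had both kidneys clamped for 22 min and were studied after 24 h of reperfusion. All were 6 to 8 weeks old on a C57BL/6 background. The text below names a library by its group and replicate number.

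Libraries held 12165089 to 23123693 counts. Ctrl replicates 1 and 2 carried 22402 and 19755 Xist counts and no counts of 4 Y-linked genes, as in female mice, while Ctrl replicate 3 and the other 9 libraries carried 1 to 11 Xist counts and at least 3109 Y-linked counts. Every comparison with Ctrl is therefore partly one of sex, which is not so for PT-KO+I/R set against either of the other groups. Gfer was not lower in the libraries labelled knockout: it stood at 12.8 ± 1.58 CPM (counts scaled to library size by TMM, mean ± SD, n = 3) for Ctrl, 14.1 ± 3.68 for PT-KO, 17.7 ± 2.35 for Ctrl+I/R and 21.8 ± 0.79 for PT-KO+I/R, and it rose after I/R in knockout mice (log2 fold change 0.64, adjusted p = 0.00888). In 1 of 12 alternative fits that rise did not pass. Counts over the whole gene need not show an exon lost in 1 cell type, so that the label could not be checked with them. Summed proximal tubule markers (Lrp2, Cubn, Slc34a1 and 4 others), which define the labelled tissue, reached 12478 to 13902 CPM for Ctrl, 12353 to 14370 for PT-KO, 3846 to 8596 for Ctrl+I/R and 2614 to 3156 for PT-KO+I/R. Of the 7 markers, 3 were called lower (adjusted p under 0.05) after I/R in control mice, as were 7.97% of all genes. In knockout mice 7 were (32.7% of all genes), and between the injured groups 4 (24.4%). Mean Slc22a6 was 515 CPM for Ctrl and 534 for Ctrl+I/R, and mean Slc5a2 306 for Ctrl+I/R and 278 for PT-KO+I/R. In whole tissue, fewer cells of a type and less RNA per cell cannot be told apart.

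The sequences upstream of Acsl4 and Acsl3 are shown because these genes moved in opposite directions in the comparisons below. Acsl4 lies at chrX:142317993-142390535 on the minus strand and Acsl3 at chr1:78657825-78707743 on the plus strand (GRCm38). Printed are the 250 bases before each RefSeq start site (GRCm38.p6), chrX:142390536-142390785 for Acsl4 and chr1:78657575-78657824 for Acsl3, 5′ to 3′ on the strand of the gene, with no annotated exon inside.
Acsl4: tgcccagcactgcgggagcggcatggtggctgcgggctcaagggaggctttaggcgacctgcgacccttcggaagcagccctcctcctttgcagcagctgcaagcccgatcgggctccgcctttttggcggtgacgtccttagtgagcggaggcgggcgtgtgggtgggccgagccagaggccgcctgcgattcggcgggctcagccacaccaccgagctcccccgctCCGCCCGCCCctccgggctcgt
Acsl3: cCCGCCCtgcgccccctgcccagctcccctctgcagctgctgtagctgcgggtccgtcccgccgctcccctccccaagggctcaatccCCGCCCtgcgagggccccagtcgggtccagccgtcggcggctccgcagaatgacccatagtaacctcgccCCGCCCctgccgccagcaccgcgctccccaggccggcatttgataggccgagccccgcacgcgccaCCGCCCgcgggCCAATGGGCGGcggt
Capitals mark the GC box (GGGCGG, or CCGCCC on the other strand) and the CCAAT box (CCAAT or ATTGG). The Acsl4 stretch holds a pair of overlapping GC boxes on the opposite strand that begin at -22 and -18 from the start site, and no CCAAT box. In the Acsl3 stretch, 5 GC boxes were found, at -249, -162, -92 and -26 on the opposite strand and at -10 on the gene's own strand, and a CCAAT box at -15 touches the last of them. Of 32851 mouse promoter windows of 300 bases, 35.7% hold a GC box and 37.4% a CCAAT box, so that both are common. Neither window held a TATA box (TATAAA), an E box (CACGTG), a cyclic AMP response element (TGACGTCA), a sterol regulatory element (TCACNCCAC), an antioxidant response element (TGACNNNGC), or an exact direct repeat of the PPAR or LXR type on either strand, which says only that these letters are absent there.

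Acsl4 had the largest log2 fold change of the 8 genes in PT-KO+I/R, both against PT-KO and against Ctrl+I/R. Its level was 72.4, 87.3 and 71.9 CPM in Ctrl replicates 1, 2 and 3 and 72.8, 63.6 and 78.8 in PT-KO replicates 1, 2 and 4. It was 120, 180 and 107 CPM in Ctrl+I/R replicates 1, 2 and 4 and 381, 365 and 347 in PT-KO+I/R replicates 2, 3 and 4. The sham groups overlapped, all Ctrl+I/R libraries lay above them, and all PT-KO+I/R libraries lay above Ctrl+I/R by more than the range within either group. Acsl4 rose after I/R in control mice, with a log2 fold change of 0.81 (SE 0.20, adjusted p = 0.033, edgeR quasi-likelihood test with Benjamini-Hochberg adjustment over all genes tested, as throughout). In knockout mice it rose by 2.36 on the log2 scale (SE 0.10, adjusted p = 8.53e-08), which is 5.12-fold. The I/R response was larger in knockout mice, since the difference of the log2 fold changes was 1.56 (SE 0.24, adjusted p = 0.000839) and remained 1.44 (adjusted p = 0.0121) with the male Ctrl library as the sole sham control. After I/R, Acsl4 was 2.71-fold above the injured controls in PT-KO+I/R (log2 fold change 1.44, SE 0.19, adjusted p = 0.000936). The rise in control mice lost its call without any 1 of Ctrl replicates 1, 2 and 3 or Ctrl+I/R replicate 1 (log2 fold change 0.77 to 0.93, adjusted p = 0.0713 to 0.112). With the male Ctrl library alone it was 0.90 (adjusted p = 0.0624) and was not called.

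Acsl3, the synthetase of the endoplasmic reticulum and lipid droplets, moved the other way in knockout mice. Ctrl replicates 1, 2 and 3 gave 37.2, 42.7 and 44.5 CPM and PT-KO replicates 1, 2 and 4 gave 32.6, 33.5 and 39.5. Ctrl+I/R replicates 1, 2 and 4 gave 32.5, 32.5 and 49.5 CPM, and PT-KO+I/R replicates 2, 3 and 4 gave 17.1, 16.1 and 20.8. The first 3 groups overlapped in their levels and every PT-KO+I/R library lay below all of the other 9. Acsl3 fell by 0.96 on the log2 scale after I/R in knockout mice (SE 0.13, adjusted p = 0.000124), and stood below the injured controls by a log2 fold change of -1.07 (SE 0.20, adjusted p = 0.00355). In control mice the change after I/R was -0.12 (95% interval -0.54 to 0.29, adjusted p = 0.647). The difference between the responses, -0.82 (SE 0.23, adjusted p = 0.0196), was -0.73 with adjusted p = 0.131 against the male Ctrl library alone, and -0.73 and -0.74 (adjusted p = 0.0521 and 0.0509) without PT-KO replicate 4 and without PT-KO+I/R replicate 3. Utp14b, on the same strand, overlaps 5.6% of the Acsl3 exon bases and stood at 3.99 to 10.1 CPM, so that shared reads could fall to either gene.

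Acsl1, which feeds fatty acids to oxidation and to triglycerides in many tissues, had the highest mean level of the 4 synthetases per kilobase in both sham groups. In the injured groups the order depended on the length used, as given with the levels per kilobase. It reached 476, 413 and 233 CPM in Ctrl replicates 1, 2 and 3, so that both Xist-positive libraries lay above the male one. PT-KO replicates 1, 2 and 4 held 282, 218 and 291 CPM, Ctrl+I/R replicates 1, 2 and 4 held 177, 96.2 and 224, and PT-KO+I/R replicates 2, 3 and 4 held 388, 256 and 293. Ctrl overlapped PT-KO, and Ctrl+I/R lay below Ctrl and PT-KO+I/R without overlap. After I/R, Acsl1 was above the injured controls in PT-KO+I/R (log2 fold change 0.92, SE 0.30, adjusted p = 0.0356). This call was lost without Ctrl+I/R replicate 1 or PT-KO+I/R replicates 2 or 4 (0.75 to 0.98, adjusted p = 0.0765 to 0.106). The change after I/R was -1.17 in control mice (SE 0.36, adjusted p = 0.058) and 0.26 in knockout mice (SE 0.16, adjusted p = 0.192), and neither passed. The former passed with DESeq2 (-1.17, adjusted p = 0.00474), with no filter on low counts (-1.16, adjusted p = 0.0185), in 1 fit to all 12 libraries (-1.18, adjusted p = 0.014) and without Ctrl replicate 3 or Ctrl+I/R replicate 4 (-1.41 and -1.44, adjusted p = 0.0417 and 0.0375), and came to -0.51 (adjusted p = 0.417) against the male Ctrl library. The difference of these responses, 1.45 (SE 0.43, adjusted p = 0.0251), came to 0.75 with adjusted p = 0.293 when the male Ctrl library stood alone for Ctrl, and lost its call without Ctrl replicates 1 or 2, PT-KO replicate 2 or PT-KO+I/R replicate 2 (1.23 to 1.37, adjusted p = 0.0543 to 0.0628). Ctrl replicate 1, with the highest Acsl1 level, also had the highest sum of 4 fat cell markers (16.5 CPM, against 0.278 and 0.304 in the other Ctrl libraries), with Adipoq at 5.81 and Plin1 at 5.91 CPM. The same sum was 0.804 to 1.10 CPM for Ctrl+I/R and 6.81 to 10.8 for PT-KO+I/R, the groups between which Acsl1 was called. There it was mostly Cidec, a lipid droplet protein (6.71 to 9.44 CPM; log2 fold change between the injured groups 3.05, adjusted p = 0.000228), while the fat-defining Adipoq and Plin1 were at 0 to 0.310 and 0 to 0.798 CPM. The part of sex or fat in the Acsl1 level was not tested.

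Acsl5, a synthetase found on mitochondria and the endoplasmic reticulum, rose after I/R in knockout mice and did not differ detectably between the injured groups. Ctrl replicates 1, 2 and 3 had 104, 107 and 87.5 CPM, PT-KO replicates 1, 2 and 4 had 80.1, 69.2 and 78.7, Ctrl+I/R replicates 1, 2 and 4 had 112, 142 and 103, and PT-KO+I/R replicates 2, 3 and 4 had 121, 129 and 128. The PT-KO libraries were the lowest and the Ctrl and Ctrl+I/R ranges overlapped, as did those of Ctrl+I/R and PT-KO+I/R. The rise in knockout mice was 0.74 on the log2 scale (SE 0.09, adjusted p = 4.42e-05), and the difference between the injured groups was 0.10 (95% interval -0.19 to 0.39, adjusted p = 0.54). The interaction of 0.50 (SE 0.18, adjusted p = 0.0497) lost its call without any 1 of 10 of the 12 libraries, Ctrl replicate 3 and Ctrl+I/R replicate 2 being the exceptions (0.40 to 0.54 and adjusted p = 0.0621 to 0.113 where lost), and was 0.30 (adjusted p = 0.354) with the male Ctrl library alone. It was also not called with total counts (0.42, adjusted p = 0.162) or with no filter on low counts (0.48, adjusted p = 0.0883). Zdhhc6, on the opposite strand, overlaps 8.31% of the Acsl5 exon bases and stood at 49.04 to 81.9 CPM, so that its reads may be counted in Acsl5 if the counting ignored strand, which is not given in the sources used here.

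**Figure D1:**
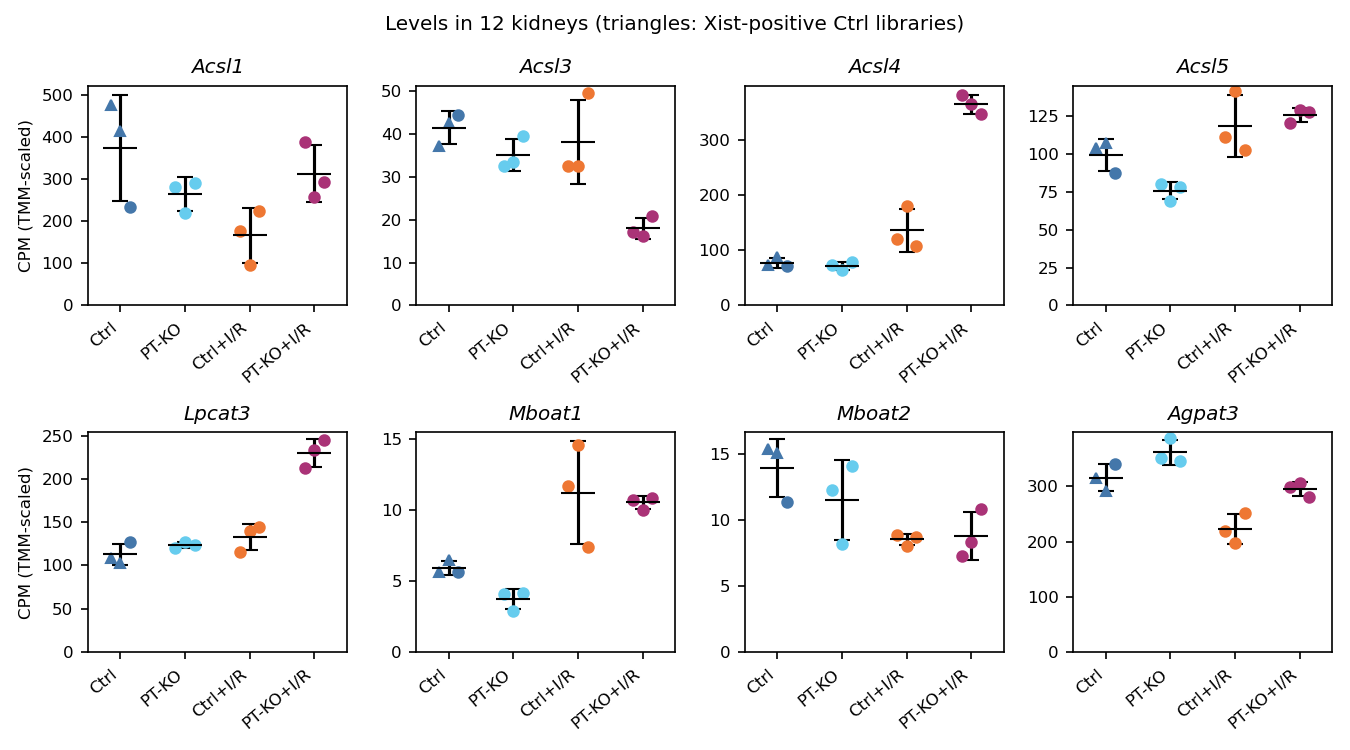
Level of each gene in every library in CPM (TMM-scaled, linear axes from 0), by group; horizontal bars are means and vertical bars the SD of 3 libraries, and triangles mark the 2 Xist-positive Ctrl libraries. Acsl4 reaches 347 to 381 CPM and Lpcat3 213 to 245 CPM in PT-KO+I/R, above all other libraries, while Acsl3 falls to 16.1 to 20.8 CPM there.

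Among the acyltransferases, Lpcat3, which places linoleic and arachidonic acid on lysophosphatidylcholine, was highest in the same group as Acsl4. Its level was 109, 103 and 127 CPM in Ctrl replicates 1, 2 and 3, and 120, 127 and 124 in PT-KO replicates 1, 2 and 4. Ctrl+I/R replicates 1, 2 and 4 showed 115, 140 and 144 CPM and PT-KO+I/R replicates 2, 3 and 4 showed 213, 233 and 245. The first 3 groups overlapped and PT-KO+I/R stood above all of them. Lpcat3 rose by 0.91 on the log2 scale after I/R in knockout mice (SE 0.09, adjusted p = 9.1e-06), against 0.24 in control mice (95% interval -0.06 to 0.54, adjusted p = 0.216). The difference of the responses was 0.68 (SE 0.15, adjusted p = 0.00632), and 0.84 (adjusted p = 0.0148) against the male Ctrl library alone. PT-KO+I/R exceeded Ctrl+I/R by a log2 fold change of 0.81 (SE 0.12, adjusted p = 0.00149). Emg1, on the opposite strand, overlaps 10.22% of the Lpcat3 exon bases and stood at 25.5 to 40.8 CPM, so that some of its reads may be counted in Lpcat3 if strand was ignored.

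Agpat3, which turns lysophosphatidic acid into phosphatidic acid and is known for docosahexaenoic acid, was lower after I/R in both genotypes. Ctrl replicates 1, 2 and 3 read 316, 291 and 341 CPM, PT-KO replicates 1, 2 and 4 read 351, 388 and 347, Ctrl+I/R replicates 1, 2 and 4 read 219, 197 and 252, and PT-KO+I/R replicates 2, 3 and 4 read 298, 306 and 281. All Ctrl+I/R libraries lay below the rest, and PT-KO+I/R lay below PT-KO and overlapped Ctrl. Agpat3 fell by 0.51 on the log2 scale in control mice (SE 0.14, adjusted p = 0.0419) and by 0.28 in knockout mice (SE 0.09, adjusted p = 0.0163). PT-KO+I/R stood above Ctrl+I/R by 0.42 (SE 0.12, adjusted p = 0.0249). A difference between the I/R responses was not detected (0.24, 95% interval -0.10 to 0.57, adjusted p = 0.26). The call between the injured groups was lost without Ctrl+I/R replicate 1 or any 1 of the PT-KO+I/R replicates (0.40 to 0.46, adjusted p = 0.0561 to 0.0774), that in control mice without Ctrl replicates 1, 2 or 3 or Ctrl+I/R replicates 1 or 2 (-0.55 to -0.41, adjusted p = 0.0827 to 0.126), and that in knockout mice without PT-KO replicate 2 or PT-KO+I/R replicate 4 (-0.23 and -0.24, adjusted p = 0.0562 and 0.068). That in control mice was also lost with total counts (-0.39, adjusted p = 0.0623).

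Mboat1 and Mboat2 were the least abundant of the 8 genes. Mboat1, which acylates lysophosphatidylethanolamine and lysophosphatidylserine, held 5.66, 6.45 and 5.62 CPM in Ctrl replicates 1, 2 and 3, 4.12, 2.91 and 4.13 in PT-KO replicates 1, 2 and 4, 11.7, 14.6 and 7.40 in Ctrl+I/R replicates 1, 2 and 4, and 10.8, 10.02 and 10.9 in PT-KO+I/R replicates 2, 3 and 4. Both injured groups lay above both sham groups and overlapped each other. Mboat1 rose after I/R in control mice (log2 fold change 0.93, SE 0.25, adjusted p = 0.0425) and in knockout mice (1.52, SE 0.19, adjusted p = 6.4e-05), with a difference between the injured groups of -0.08 (95% interval -0.63 to 0.46, adjusted p = 0.794). Mboat2, which prefers oleic acid, held 15.4, 15.04 and 11.4 CPM in Ctrl replicates 1, 2 and 3 and 12.2, 8.19 and 14.1 in PT-KO replicates 1, 2 and 4. After I/R its level was 8.84, 8.05 and 8.68 CPM in Ctrl+I/R replicates 1, 2 and 4 and 7.23, 8.29 and 10.8 in PT-KO+I/R replicates 2, 3 and 4. Ctrl lay above both injured groups, and PT-KO overlapped all the others. Mboat2 fell by 0.71 on the log2 scale in control mice (SE 0.16, adjusted p = 0.0273), and the change in knockout mice was -0.37 (95% interval -0.87 to 0.13, adjusted p = 0.171), or -0.57 (adjusted p = 0.0328) without PT-KO replicate 2. The calls in control mice were lost for Mboat1 without any 1 of Ctrl replicates 1, 2 and 3 and Ctrl+I/R replicates 1 and 2 (0.72 to 1.01, adjusted p = 0.0846 to 0.125), and for Mboat2 without any 1 of Ctrl replicates 1 and 2 and Ctrl+I/R replicates 1 and 2 (-0.74 to -0.62, adjusted p = 0.0688 to 0.107). Neither was called with the male Ctrl library alone, where Mboat1 was 0.99 (adjusted p = 0.108) and Mboat2 -0.43 (adjusted p = 0.369), nor was Mboat2 with total counts (-0.60, adjusted p = 0.0614).

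The counts of calls among the 8 genes are read against all genes tested. In control mice I/R moved 2 of 8 up and 2 down, where 19.4% of all tested genes were called (11.4% higher and 7.97% lower), with a median log2 fold change of 0.06 against -0.01 over all genes. The groups of 5 of the 8 did not overlap in that comparison, against 43.6% of all genes. In knockout mice 4 rose and 2 fell against a background of 65.5% called (32.9% higher and 32.7% lower), with medians of 0.50 and 0.01, so that their share of calls was near the background, and the groups of 6 did not overlap, against 70.7%. Between the injured groups, 4 were higher and 1 was lower in PT-KO+I/R, with 46.9% of all genes called (22.5% higher and 24.4% lower) and medians of 0.26 and -0.0049. The groups of 5 did not overlap, against 58.6%. For the difference of the I/R responses, 5 of 8 were called, Acsl1, Acsl4, Acsl5 and Lpcat3 upwards and Acsl3 downwards, against 30.6% of all genes (14.3% higher and 16.4% lower). The count in control mice was 0 without Ctrl replicate 1, Ctrl replicate 2 or Ctrl+I/R replicate 1, 1 without Ctrl+I/R replicate 2 and 2 without Ctrl replicate 3, and 1 with the male Ctrl library alone. Between the injured groups it was 3 without Ctrl+I/R replicate 1, PT-KO+I/R replicate 2 or PT-KO+I/R replicate 4, and for the interaction it was 2, Acsl4 and Lpcat3, with the male Ctrl library alone, and 3 without any 1 of Ctrl replicates 1 and 2, PT-KO replicates 2 and 4 and PT-KO+I/R replicates 2 and 3.

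In uninjured kidneys, no difference between PT-KO and Ctrl passed the edgeR test for any of the 8 genes. None was called, with 0% of the 15291 genes tested called as background. At an unadjusted p under 0.05, 2 of 8 passed, Acsl5 (log2 fold change -0.40, 95% interval -0.65 to -0.15, adjusted p = 0.203) and Mboat1 (-0.68, -1.15 to -0.21, adjusted p = 0.21), and so did 2573 genes in all, or 16.8%. DESeq2 called none of the 8 and 458 genes in all. Acsl5, Mboat1 and Agpat3 had groups that did not overlap, which held for 21% of all genes. With the Xist-positive Ctrl libraries alone against PT-KO, Acsl1 (-0.76, adjusted p = 0.00739) and Acsl5 (-0.49, adjusted p = 0.0103) passed. Against the male Ctrl library alone, they stood at 0.17 and -0.21, and neither passed.

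**Figure D2:**
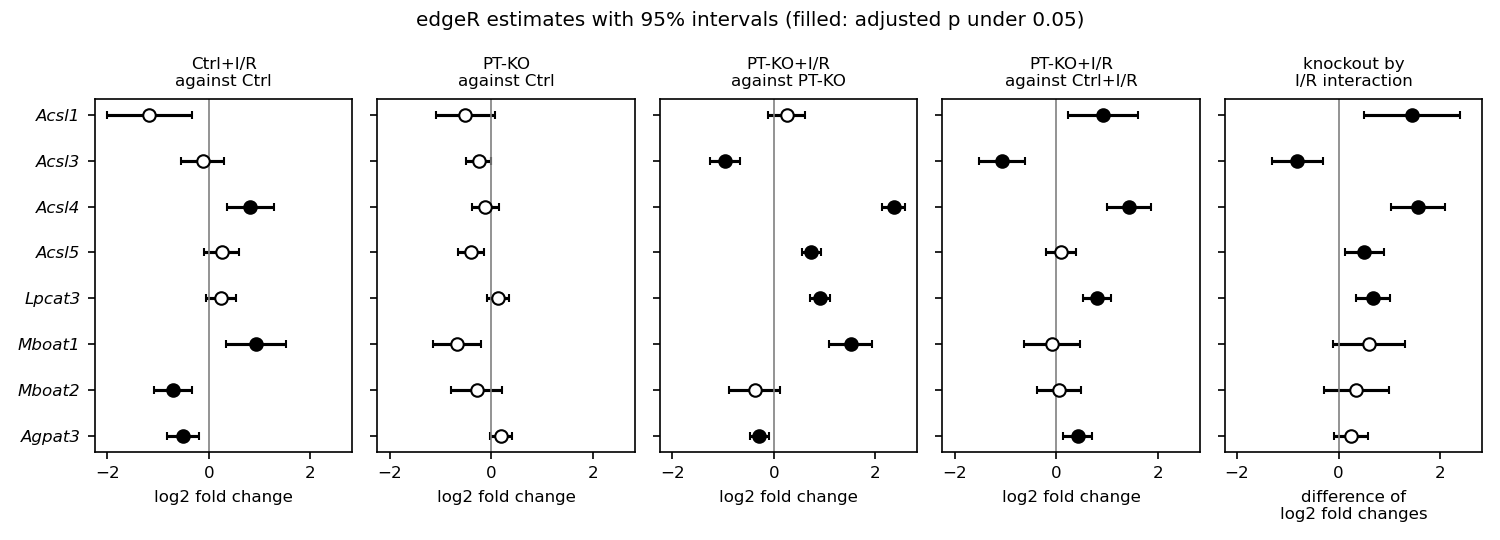
Log2 fold change of each gene in the 4 comparisons and the difference of the I/R responses (the last panel), with 95% intervals from edgeR; filled points have an adjusted p under 0.05. Acsl4 lies furthest to the right in PT-KO+I/R against PT-KO, at 2.36, and Acsl3 lies left of 0 in the last 3 panels, at -0.96, -1.07 and -0.82.

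Levels of different genes were compared per kilobase of the longest coding transcript. In Ctrl, Acsl1 led with 95.9 ± 32.4 CPM per kilobase (SD, n = 3), followed by Agpat3 with 52.8 ± 4.13 and Lpcat3 with 49.4 ± 5.49, whose ranges overlapped. Acsl5 (23.5 ± 2.52), Acsl4 (14.6 ± 1.66) and Acsl3 (10.5 ± 0.96) followed in that order with no overlap, and Mboat2 (2.05 ± 0.328) and Mboat1 (2.03 ± 0.162) were last and overlapped. PT-KO showed the same order, but there Acsl1 (67.7 ± 10.2) and Agpat3 (60.5 ± 3.79) overlapped. In Ctrl+I/R, Lpcat3 (58.3 ± 6.75), Acsl1 (42.5 ± 16.6), Agpat3 (37.2 ± 4.63), Acsl5 (28 ± 4.79) and Acsl4 (25.7 ± 7.37) each overlapped the next. In PT-KO+I/R, Lpcat3 (101 ± 7.05), Acsl1 (80.1 ± 17.4) and Acsl4 (69 ± 3.22) led, each overlapping the next, and Agpat3 (49.3 ± 2.17), Acsl5 (29.7 ± 1.11), Acsl3 (4.55 ± 0.622), Mboat1 (3.63 ± 0.159) and Mboat2 (1.29 ± 0.271) followed without overlap. The order turned with the length. By coding length (this and all joined exons were tried on the levels after seeing the data), Agpat3 led in all 4 groups (280 CPM per kilobase for Ctrl, 320 for PT-KO, 197 for Ctrl+I/R and 261 for PT-KO+I/R). With all joined exons, it led in Ctrl (40.5) and PT-KO (46.4) and Lpcat3 led after I/R (40.7 and 70.5). Among the synthetases in PT-KO+I/R, Acsl4 exceeded Acsl1 with all joined exons (67.4 against 29.8) and by coding length (171 against 144), and in Ctrl+I/R it did so with all joined exons (25.1 against 15.8).

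In the makeup of the synthetase mRNA, the Acsl4 and Acsl1 shares did not overlap between sham and injured libraries of either genotype (exact permutation p = 0.1 each). Acsl4 made up 8.08% to 12.9% of the summed counts per kilobase of the 4 synthetases for Ctrl, 12.2% to 13.0% for PT-KO, 17.7% to 34.0% for Ctrl+I/R and 35.3% to 40.8% for PT-KO+I/R. The share of Acsl3 was 5.56% to 10.7% for Ctrl, 7.29% to 9.13% for PT-KO, 8.00% to 10.9% among Ctrl+I/R and 2.11% to 2.98% among PT-KO+I/R. Acsl4 thus had a mean share of 37.8% in PT-KO+I/R and 24.6% in Ctrl+I/R, a difference of 13.2 percentage points (two-sided exact permutation test, p = 0.1, the smallest p that 3 against 3 libraries allow). The difference fell to 9.72 points without Ctrl+I/R replicate 4 and reached 17.9 points without Ctrl+I/R replicate 2. Acsl1 made up 56.7% to 71.9% for Ctrl, 60.3% to 63.9% for PT-KO, 24.6% to 50.2% for Ctrl+I/R and 38.8% to 48.7% for PT-KO+I/R, so that the injured groups overlapped. Acsl5 made up 14.4% to 19.6% for Ctrl, 15.7% to 17.6% for PT-KO, 21.2% to 33.2% for Ctrl+I/R and 13.9% to 18.01% for PT-KO+I/R, a mean of 26.7% against 16.3% after I/R (difference of PT-KO+I/R from the injured controls -10.3 percentage points, no overlap, exact permutation p = 0.1). The ratio of Acsl4 to Acsl3 counts per kilobase, which does not depend on library scaling, was 1.21 to 1.53 for Ctrl, 1.42 to 1.67 for PT-KO, 1.62 to 4.15 for Ctrl+I/R and 12.5 to 16.9 for PT-KO+I/R.

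**Figure D3:**
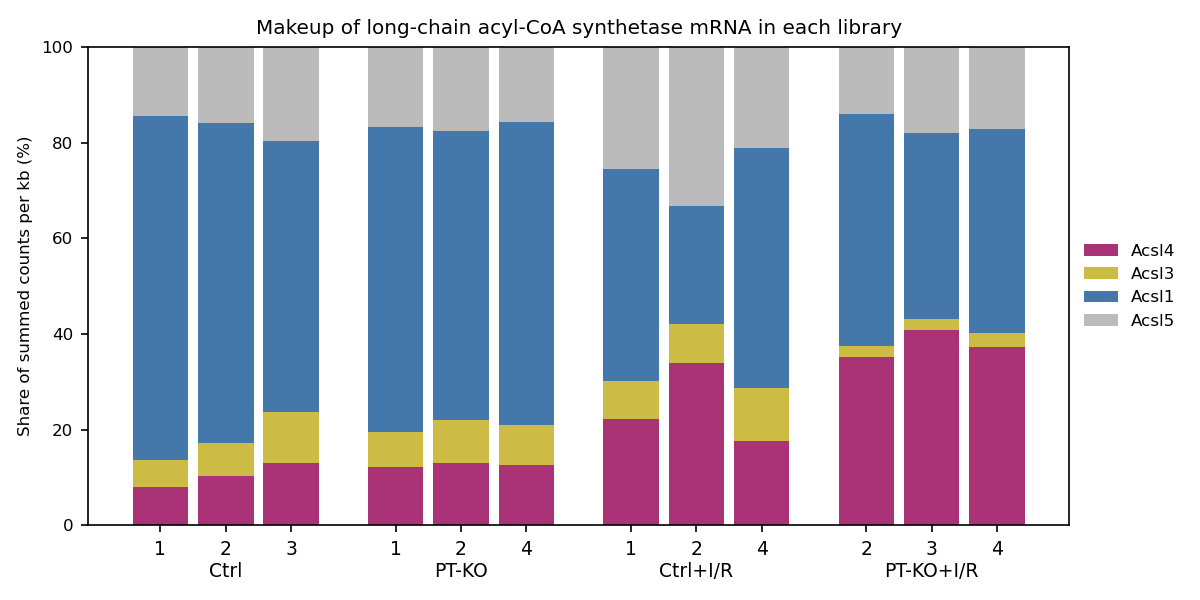
Share of Acsl4, Acsl3, Acsl1 and Acsl5 in their summed counts per kilobase (percent, stacked to 100) in each of the 12 libraries, numbered by replicate within group. The Acsl4 share is 35.3% to 40.8% in the PT-KO+I/R bars and 17.7% to 34.0% in the Ctrl+I/R bars, and the Acsl3 band narrows to 2.11% to 2.98% in PT-KO+I/R.

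Within the 4 acyltransferases, Lpcat3 had a larger share after I/R than in the sham libraries. The Lpcat3 share of their summed counts per kilobase was 45.6% to 47.9% for Ctrl, 45.4% to 46.9% for PT-KO, 54.7% to 61.0% for Ctrl+I/R and 63.1% to 67.2% for PT-KO+I/R. The Agpat3 share was 49.0% to 50.4%, 50.05% to 52.8%, 32.8% to 39.5% and 29.4% to 33.7% in the same order of groups. The Lpcat3 share thus did not overlap between the injured groups (exact permutation p = 0.1) and the Agpat3 share did (exact permutation p = 0.2). Agpat3 had the larger share of the pair in all 6 sham libraries under each length, and Lpcat3 in all 6 injured libraries with the longest coding transcript or all joined exons. By coding length, Agpat3 stayed the larger in all 12 libraries, with a Lpcat3 share of 27.6% to 33.6% for Ctrl+I/R and 34.6% to 38.9% for PT-KO+I/R.

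Across the 12 libraries, Acsl4 varied with Lpcat3 (Pearson r of log2 CPM 0.910) and against Acsl3 (-0.867), and Acsl5 with Mboat1 (0.953). These points share the 4 groups, and the values only describe them. Of the 10986 genes that averaged 100 counts or more, Tab2 (0.994), Lsm14a (0.992) and Serpinb6a (0.991) were most like Acsl4. For Acsl3 they were Supv3l1 (0.971), Stard4 (0.971) and Dhcr7 (0.965), for Lpcat3 Slc48a1 (0.988), Ykt6 (0.987) and Tead1 (0.986), and for Acsl5 Cerk (0.979), Cldn1 (0.962) and Sytl2 (0.959). Mgll (0.917), Ildr1 (0.915) and Esrrb (0.901) were most like Acsl1, Pbdc1 (0.979), Mmp14 (0.9745) and Sox4 (0.974) most like Mboat1, Sntb1 (0.949), Slc35e2 (0.930) and Ints6l (0.922) most like Mboat2, and Por (0.962) and Tango2 (0.962) most like Agpat3. These ranks hold for TMM scaling. With total counts, r with Acsl4 was 0.981 for Tab2, 0.931 for Lsm14a and 0.991 for Serpinb6a.

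Genes that make the polyunsaturated chains were lower in the injured knockout kidney. Polyunsaturated fatty acid synthesis, the desaturases and elongases that make long polyunsaturated chains, had all 4 of its tested genes called below the injured controls in PT-KO+I/R, where 24.4% of all genes were called lower. Fads2, the delta-6 desaturase, was at 90.7 to 177 CPM among Ctrl+I/R and 28.8 to 34.0 among PT-KO+I/R (log2 fold change -2.07, SE 0.23, adjusted p = 0.000533). Fads1, the delta-5 desaturase, was at 72.6 to 114 CPM and 41.6 to 54.2 CPM (-0.94, SE 0.19, adjusted p = 0.00471), and the elongase Elovl2 at 39.7 to 57.7 and 18.9 to 30.3 (-0.95, SE 0.21, adjusted p = 0.00791). With a block for the replicate number in edgeR, Fads1 (-0.91, adjusted p = 0.0900) and Elovl2 (-0.86, adjusted p = 0.101) lost these calls. Without injury, all 4 were lower in PT-KO than in Ctrl and none was called. There 3 had an unadjusted p under 0.05 (16.8% of all genes did, in either direction) and DESeq2 called 1. Elovl2 was at 91.8, 96.5 and 47.4 CPM in Ctrl replicates 1, 2 and 3 and at 33.0 to 53.6 in PT-KO, with an interaction of -0.02. The same 4 genes were called lower after I/R in knockout mice (32.7% of all genes were) and none was called in control mice (7.97% of all genes were, and 2 of the 4 were lower at an unadjusted p under 0.05 and by DESeq2), where Fads2 had an adjusted p of 0.0545, and the difference of the responses passed for Fads2 (-2.01) and Fads1 (-0.73), both called. That of Fads1 lost its call with the male Ctrl library alone (-0.79, adjusted p = 0.0903) and without PT-KO replicate 4 or PT-KO+I/R replicates 3 or 4 (-0.69 to -0.66, adjusted p = 0.0525 to 0.0599).

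Other acyl-CoA synthetases, a list over all chain lengths that includes the long-chain Acsl6, had 2 higher and 5 lower of 14 tested genes between the injured groups (median log2 fold change -0.22). There 46.9% of all genes were called (22.5% higher and 24.4% lower). After I/R, 2 were higher and 11 lower in knockout mice (median -1.26), where 65.5% of all genes were called. In control mice, where 19.4% were called, 1 was higher and 4 were lower, and 8 were lower at an unadjusted p under 0.05 and 6 by DESeq2. Acsm5, a medium-chain synthetase of mitochondria, was at 33.5 to 94.5 CPM among Ctrl+I/R and 10.4 to 14.4 among PT-KO+I/R (-2.41, SE 0.36, adjusted p = 0.00151). Acss2, which activates acetate in the cytosol, was at 95.4 to 208 and 39.9 to 54.9 CPM (-1.68, SE 0.27, adjusted p = 0.00222), and Acss3, of the same family, at 10.9 to 20.2 and 1.98 to 6.13 CPM (-2.002, SE 0.39, adjusted p = 0.00463). Ether phospholipid synthesis had 1 higher and 3 lower of 4 tested genes, against 46.9% of all genes called: Far1, the fatty acyl-CoA reductase of peroxisomes, changed by -0.61 (SE 0.11, adjusted p = 0.00288) and Agps, the alkyl synthase, by -0.41 (SE 0.10, adjusted p = 0.0111), whereas Tmem189, the plasmalogen desaturase, changed by 0.82 (SE 0.13, adjusted p = 0.00177). The Agps call was lost in 1 fit to all 12 libraries (-0.41, adjusted p = 0.22) and without PT-KO+I/R replicate 3 (-0.35, adjusted p = 0.0569).

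Further acyltransferases of glycerolipids and lysophospholipids went both ways, with 4 higher and 3 lower of 14 tested between the injured groups, near the 46.9% of all genes called there. Gpam, the mitochondrial first enzyme of glycerolipid synthesis, was higher (0.82, SE 0.21, adjusted p = 0.0143), and Agpat1 (-0.84, SE 0.11, adjusted p = 0.00105) and Lpcat1 (-0.81, SE 0.25, adjusted p = 0.0278) were lower. Mean Gpam was 189 CPM for Ctrl, 180 for PT-KO, 91.5 for Ctrl+I/R and 161 for PT-KO+I/R, so that both injured means lay below both sham means. The Lpcat1 call was lost without Ctrl+I/R replicate 4 or PT-KO+I/R replicates 2 or 4 (-0.74 to -0.64, adjusted p = 0.0642 to 0.102). Phospholipases A2, which cut fatty acids from phospholipids, had 3 higher and 2 lower of 9 tested, again near the 46.9% called among all genes. The secreted Pla2g5 was at 12.7 to 14.2 CPM among Ctrl+I/R and 2.37 to 3.36 among PT-KO+I/R (-2.17, SE 0.19, adjusted p = 0.000233), while Pla2g12a went from 19.8 to 21.9 CPM to 37.3 to 53.0 (1.06, SE 0.15, adjusted p = 0.00118) and Pla2g7, which cleaves oxidized phospholipids, was higher by 0.69 (SE 0.23, adjusted p = 0.0387). The Pla2g7 call was lost with total counts (0.49, adjusted p = 0.103) and without Ctrl+I/R replicates 2 or 4 or PT-KO+I/R replicates 2 or 4 (0.49 to 0.76, adjusted p = 0.0713 to 0.108). Of the genes of lipid peroxidation and its repair, 3 of 8 tested were higher and none was lower (1 lower at an unadjusted p under 0.05, and 0 by DESeq2), against 22.5% and 24.4% of all genes. Aifm2, the ferroptosis suppressor also called FSP1, was at 18.7 to 23.03 CPM among Ctrl+I/R and 35.4 to 45.8 among PT-KO+I/R (0.94, SE 0.13, adjusted p = 0.00131), and Por, the cytochrome P450 reductase, was higher by 0.61 (SE 0.15, adjusted p = 0.0129), a call lost without Ctrl+I/R replicate 1 (0.52, adjusted p = 0.0531) or PT-KO+I/R replicate 4 (0.59, adjusted p = 0.0503). Mean Por was 300 CPM for Ctrl, 363 for PT-KO, 185 for Ctrl+I/R and 280 for PT-KO+I/R, so that it too was lower in the injured than in the sham groups. Gpx4, which reduces phospholipid hydroperoxides, did not pass (-0.30, SE 0.13, adjusted p = 0.0921), and is named here because of its role, after its values were seen.

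**Figure D4:**
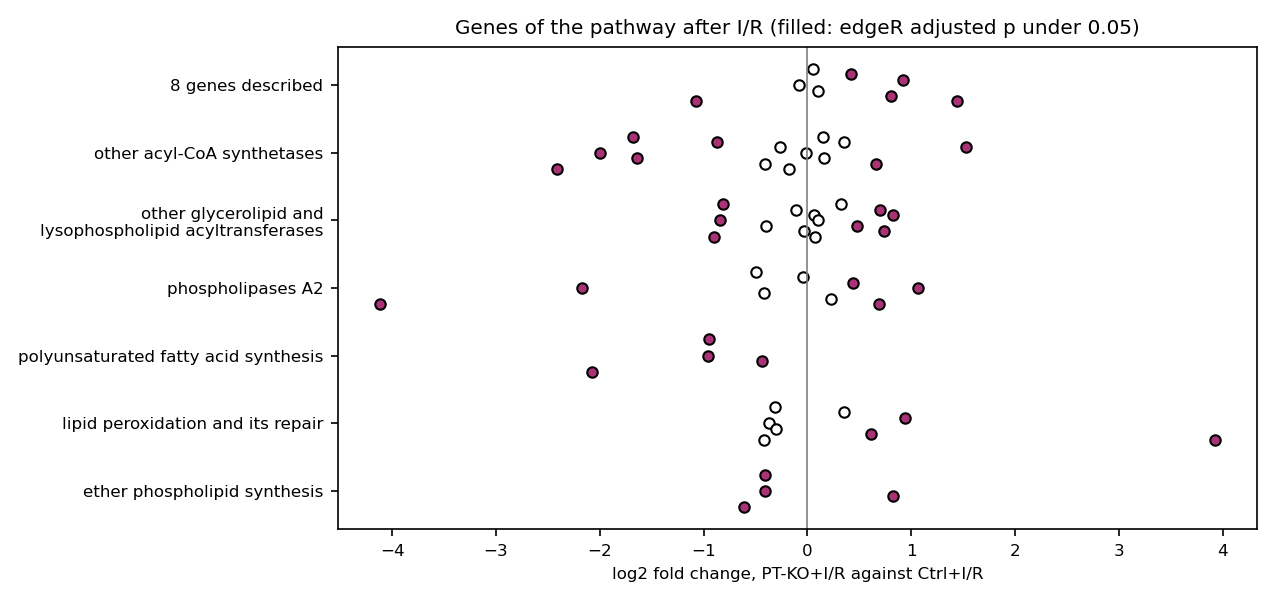
Log2 fold change between the injured groups for each tested gene of 7 lists, 1 point per gene, filled where edgeR's adjusted p is under 0.05 (vertical offsets carry no value). All 4 genes of polyunsaturated fatty acid synthesis lie left of 0, Fads2 at -2.07, while Acsl4 lies furthest right of the 8 genes described, at 1.44.

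Markers of several cell types moved with the groups. The 6 macrophage markers summed to 107 to 149 CPM among Ctrl+I/R and 147 to 250 among PT-KO+I/R, where Cd14 alone held 98.6 to 193 CPM and Adgre1, a defining marker, 0.192 to 0.504 CPM, and 2 of the 6 were called higher and 4 lower. The 5 neutrophil markers summed to 8.87 to 39.7 and 42.9 to 66.05 CPM and the 7 T and B lymphocyte markers to 5.55 to 13.8 and 0.420 to 0.959 CPM. Fibroblast and pericyte markers summed to 403 to 544 CPM among Ctrl+I/R and 107 to 173 among PT-KO+I/R, and endothelial markers to 244 to 269 and 335 to 336 CPM. Of 4 fibroblast and pericyte markers, 2 were called lower between the injured groups (24.4% of all genes were). Mean Col1a1 and Col3a1 were 126 and 264 CPM among Ctrl+I/R and 11.4 and 59.3 among PT-KO+I/R, and mean Dcn 20.3 and 20.6. Called higher were 3 of 4 endothelial and 2 of 4 tested neutrophil markers (22.5% of all genes were). Only 2 of the 7 lymphocyte markers were tested, and these 2 were called lower. Erythroid markers summed to 82.1 to 217 CPM among Ctrl+I/R and 41.8 to 49.04 among PT-KO+I/R, with 4 of 5 called lower between these groups. Some markers of other nephron segments were also called lower after I/R. Thick ascending limb and distal tubule markers summed to 5188 to 6937 CPM for Ctrl, 5242 to 6002 for PT-KO, 1637 to 3993 for Ctrl+I/R and 2116 to 2548 for PT-KO+I/R, and 4 of 4 were called lower after I/R in knockout mice and 2 in control mice. Collecting duct markers summed to 223 to 252, 175 to 283, 68.8 to 207 and 71.6 to 118 CPM in the same order, with 3 of 4 and 2 of 4 called lower. Podocyte markers summed to 129 to 178, 82.9 to 118, 69.7 to 94.9 and 78.97 to 87.8 CPM, with 1 of 3 and 2 of 3 called lower. All defining markers of adrenal steroid-producing cells but Star were at or near 0 (Cyp11b1 and Cyp11b2 at 0 in all libraries). The part of these cell types, and of the fall in tubule markers, in the changes of Acsl4, Acsl3, Lpcat3 and the other genes was not tested.

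Scaling bears on the comparison of the injured groups. Scaling by total counts in place of TMM shifted the median log2 fold change of all genes by -0.21 there, by 0.12 for I/R in control mice, by -0.12 for PT-KO against Ctrl and by less than 0.1 in the others. Acsl4 (1.23, adjusted p = 0.00212), Lpcat3 (0.60, adjusted p = 0.0052) and Acsl3 (-1.27, adjusted p = 0.00117) kept their calls between the injured groups with total counts, and Acsl1 (0.73, adjusted p = 0.0653) and Agpat3 (0.22, adjusted p = 0.176) did not. The split of all calls into higher and lower went from 3444 and 3725 to 1978 and 5080 there, from 1778 and 1241 to 2346 and 766 for I/R in control mice, and from 2305 and 2648 to 1591 and 2997 for the interaction.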

How the data were processed

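RNA of mouse kidney was sequenced in 12 libraries (3 per group). The authors aligned reads with HISAT2 2.0.4 to mm10, per the submitters' processing notes, and deposited raw counts per Ensembl gene; the counting program, its strand setting and the annotation are not given in the sources used here. Of 55487 gene identifiers, 55141 had a symbol and 29160 a count. Library totals ran from 12165089 to 23123693 counts, which limits the precision of rare genes such as Mboat1 (54 to 280 counts per library).

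Counts were tested with edgeR 4.0.16 (R 4.3.3; filterByExpr, TMM, quasi-likelihood F test) in the 6 libraries of each pair, and for the interaction in all 12. Called means a Benjamini-Hochberg adjusted p under 0.05. SE is the absolute log2 fold change divided by the square root of F, and intervals are 95%. The alternatives were DESeq2 1.42.0, total count and median-ratio scaling, no filter on low counts, a joint fit of the 12 libraries, a block for the replicate number, omission of each library, and the male Ctrl library alone, whose spread is then assumed to be that of the other groups. The labels do not say that libraries come from separate mice, so that p-values measure the spread between these samples. 1 column is numbered Ctrl 3 whereas the labels number that group 1, 2 and 4; it was used as a Ctrl replicate by its name. Gene models and lengths came from GENCODE M21 (GRCm38). The longest coding transcript was chosen as length after values with all joined exons had been seen, because those of Acsl1 span 10483 bases against 3897. Start sites and promoters came from RefSeq (GRCm38.p6), where all 8 genes had a match. Exact permutation tests of 3 against 3 libraries cannot go below 0.1.

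The genes and lists were chosen with earlier results of these data known. Named are the 8 genes, Gfer, up to 3 genes per list with the largest absolute log2 fold change among those called between the injured groups with a mean of at least 100 counts, and the 3 genes most correlated with each of the 8, of which 1 is not reported here. On simulated counts over 15281 genes for the injured groups, 59 of 100 genes with a log2 change of 1 and 89 of 100 with a change of 2 were found, with 15 false calls. For I/R in control mice 42 and 83 of 100 were found, and for the interaction 33 and 73. No other genes were changed in the simulation, whereas 46.9% were called between the injured groups, so that these rates need not hold for the data.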

Additional observations from a re-analysis of the deposited data

Results flagged for a closer look

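The I/R response differed between knockout and control mice, by the interaction term of edgeR, for 5 of the 8 genes (difference of the log2 fold changes, PT-KO minus Ctrl): Acsl4 by 1.56, Acsl1 by 1.45, Lpcat3 by 0.68, Acsl5 by 0.50 and Acsl3 by -0.82. Since 2 of the 3 Ctrl libraries were Xist-positive, the term holds a difference of sex; with the male Ctrl library alone, Acsl4 (1.44) and Lpcat3 (0.84) passed and the other 3 did not. The term passed for 13 of 17 named genes of related pathways, and for 30.6% of all genes. These 17 were named for being called between the injured groups, a contrast that is part of the term, so that the count describes them and tests nothing. With the male Ctrl library alone, 10 of the 13 passed, and Gpam (0.88), Pla2g5 (-1.16) and Fads1 (-0.79) did not. Among the other synthetases it was -2.39 for Acsm5, -2.09 for Acss2 and -1.74 for Acss3, and among the further acyltransferases -0.78 for Agpat1 and 0.91 for Gpam. It was -1.28 for Pla2g5 and 1.13 for Pla2g12a, -2.01 for Fads2 and -0.73 for Fads1, and 1.11 for Aifm2. In ether phospholipid synthesis it was -1.75 for Agps, -0.91 for Far1 and 0.58 for Tmem189. Agps was -1.13 and Far1 -0.59 with the male Ctrl library alone, both still called. The Tmem189 call was lost without any 1 of Ctrl replicates 1 and 3, Ctrl+I/R replicate 1, PT-KO replicate 4 and PT-KO+I/R replicates 2 and 3 (0.50 to 0.57, adjusted p = 0.0552 to 0.0733). For Agps the term came with a level of 501 to 803 CPM in PT-KO and 167 to 372 CPM in Ctrl, although PT-KO against Ctrl had no called gene. The Xist-positive Ctrl replicates 1 and 2 held 179 and 167 CPM of Agps, and the male Ctrl replicate 3 held 372.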

How the results depend on the processing

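Over the 8 genes in 5 comparisons, 465 of 544 alternative values kept direction and side of the threshold, 59 lost a call, 11 gained one and 9 reversed; the causes were not tested. In PT-KO+I/R against PT-KO the count of calls stayed at 6, or 5 without PT-KO+I/R replicate 4. For I/R in control mice it went from 4 to 2 with total counts and to 1 with the male Ctrl library alone, and to between 0 and 5 without 1 library. PT-KO against Ctrl went from 0 to between 0 and 2 without 1 library. The comparison of the injured groups went from 5 to 3 with total counts and to between 3 and 5 without 1 library. The interaction went from 5 to 2 with the male Ctrl library alone and to between 3 and 5 without 1 library. Same-numbered libraries were not consistently correlated (12 pairs, median correlation -0.05, from -0.32 to 0.32, 1 of them over 0.1). Differently numbered pairs were not examined for reference, so that a pairing is not excluded for the replicate numbers. With them as a replicate block, PT-KO against Ctrl gave 2 calls (Acsl1 and Acsl5) and that of the injured groups 2 (Acsl4 and Acsl3), where Lpcat3 was 0.71 (adjusted p = 0.087), Acsl1 1.23 and Agpat3 0.41, Mboat1 was 0.0762 and 13 of 17 pathway genes lost their call. The block gave Acsl1 after I/R in control mice a call (-1.76, adjusted p = 0.00755) and ended that of the Acsl5 interaction (0.56, adjusted p = 0.101). The following reversed, none of them called: in PT-KO against Ctrl with the male Ctrl library, Acsl1 to 0.17, Lpcat3 to -0.0432, Mboat2 to 0.00317 and Gfer to -0.0452, and Gfer ranged from -0.034 to 0.326 without 1 library; between the injured groups with total counts, Acsl5 to -0.11 and Mboat2 to -0.15; without 1 library there, Mboat1 ranged from -0.314 to 0.135, Acsl5 from -0.00042 to 0.235 and Mboat2 from -0.112 to 0.182, and in the interaction Gfer from -0.00361 to 0.36, each changing sign. The Acsl4 share differed between the injured groups by 13.2 points, by 19.3 with the length of all joined exons, 14.9 with coding length and 26.7 with Acsl1 left out of the sum (the last chosen after seeing the data), and by 9.72 to 17.9 without 1 library.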
